A study of Mus musculus with 4 samples.

Results

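The genes of the major histocompatibility complex (MHC), called H2 in the mouse, and of its antigen presentation pathway were taken from the authors' deposited table of differentially expressed genes by name. The members are every listed symbol that starts with H2-, together with B2m, Tap1, Tap2, Tapbp, Cd74, Ciita and Nlrc5 where listed. This gave 22 members of 5807 listed genes. Eosinophils were sorted from the bone marrow and from the pleural lavage fluid of wild-type (WT) mice that had received LLC cells, a Lewis lung carcinoma line, into the pleural space 2 days earlier to induce malignant pleural effusion (MPE). The mice were 6 to 8 weeks old. By the sample titles, the design text and the methods, both tissues came from mice given LLC cells, but the study's results describe the bone marrow cells as naïve. If that were so, tissue and tumor cells could not be told apart in any ratio below. The labels give 2 libraries per tissue and do not say whether these came from separate or pooled animals. The sorting gates were not the same. Marrow cells were enriched on F4/80 and gated as CD45+ SiglecF+ SSChi, while pleural cells were enriched on CD45 and gated as CD11c- Gr1-/low CD11b+ F4/80+ SiglecF+ SSChi.

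MHC class I molecules sit on nearly all nucleated cells and show peptides from inside the cell to CD8+ T cells and natural killer cells. Each consists of a heavy chain and the light chain beta-2 microglobulin, and the peptide is pumped into the endoplasmic reticulum by the transporter TAP1/TAP2 and loaded with the help of tapasin. MHC class II molecules show peptides from endosomes to CD4+ T cells, are typical of B cells, dendritic cells and macrophages, and are filled with the help of H2-DM, which H2-O inhibits. Nlrc5 and Ciita are the transactivators of class I and class II genes. Eosinophils are known for their granule proteins, and antigen presentation by them has been described under stimulation.

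The values are the authors' mean reads per tissue, estimated by RSEM, with no value per library. A single gene therefore has no replicate spread and no test, the depth of a library is unknown, and every difference below is a description of 2 means. Mean reads summed over the listed genes came to 15947438 in the pleural cavity against 11762543 in the bone marrow. To compare the tissues, mean reads were divided by these sums and given as reads per 1000000 listed reads, and each log2 ratio sets pleural cavity over bone marrow after 1 was added to both of these scaled values, which understates the difference of a low gene. Without scaling, the log2 ratios of all listed genes lay a median of 0.42 higher, and with scaling by the median ratio of 1524 abundant genes they lay a median of 0.43 lower. All 17 members that were higher and all 5 that were lower kept their direction under these 3 scalings. Because the table lists only genes that passed the authors' own comparison, a gene with little difference between the tissues would not be in it, and members had to differ in order to be listed.

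The promoters of class I heavy chain genes are shown first, because they carry the regulatory elements through which these genes are known to be switched together, and because H2-Q10 went the other way from its family. They come from RefSeq on GRCm38.p6, whose promoter table held 16 of the 22 members. Each is written 5′ to 3′ on the strand of the gene and ends before the annotated RefSeq start. Capitals mark the letters searched on both strands. These were GGGANTCCC (the NF-kB element of enhancer A), TTTCACTT (the class I interferon element), GAAANNGAA (an interferon element repeat, which can overlap the reverse of TTTCACTT), TGACGC (the CRE core of the X2 box), CTGATTGG (the Y box) and CCNAGNAAC (the X box).
H2-K1 (chr17:34000348-34000473, minus strand): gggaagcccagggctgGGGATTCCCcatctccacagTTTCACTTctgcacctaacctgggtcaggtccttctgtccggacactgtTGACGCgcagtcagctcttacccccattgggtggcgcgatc
H2-Q6 (chr17:35424662-35424806, plus strand): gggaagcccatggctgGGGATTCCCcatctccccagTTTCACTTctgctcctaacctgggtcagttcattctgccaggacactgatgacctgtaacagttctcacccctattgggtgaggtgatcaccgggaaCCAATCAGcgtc
H2-Q7 (chr17:35439007-35439151, plus strand): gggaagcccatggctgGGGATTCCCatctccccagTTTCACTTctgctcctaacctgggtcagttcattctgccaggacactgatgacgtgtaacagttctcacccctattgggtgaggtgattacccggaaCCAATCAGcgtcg
H2-Q10 (chr17:35469898-35470042, plus strand): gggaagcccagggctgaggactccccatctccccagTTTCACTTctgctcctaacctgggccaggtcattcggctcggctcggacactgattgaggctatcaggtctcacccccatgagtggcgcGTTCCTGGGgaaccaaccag
H2-Q10 had the interferon element in a like place to the others. The letters of the NF-kB element, which the other 3 hold, and of the Y box, which H2-Q6 and H2-Q7 hold, were not found before its start. H2-M3, H2-T22 and B2m, which were higher in the pleural cavity, had neither of these elements in the bases searched, and H2-K1 had no Y box there.

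Across the 250 bases before the start of all 32851 promoters in the RefSeq table, the NF-kB letters were found in 0.636%, and among the members in H2-D1, H2-K1, H2-Q6 and H2-Q7. The class I interferon letters were in 1.36% of all promoters and in 7 members, H2-D1, H2-M3 and H2-T22 besides those printed above. The interferon repeat was in 7.13% of all promoters and in B2m, H2-T22 and H2-T23. The CRE core was in 6.12% and in H2-D1, H2-K1 and H2-M3, and the Y box was in 3.83% and in 7 members, Tap1 and H2-Oa among them. The X box letters, found in 4.41%, were held by H2-DMb1, H2-Oa and, on the opposite strand, H2-Q10. A match says only that the letters are there. The light chain gene on chromosome 2 and the class II accessory gene H2-Oa are printed for comparison, as the former holds the interferon repeat and the latter the X and Y boxes.
B2m (chr2:122147527-122147656, plus strand): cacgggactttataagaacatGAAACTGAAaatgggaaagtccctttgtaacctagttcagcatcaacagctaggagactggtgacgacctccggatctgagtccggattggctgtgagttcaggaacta
H2-Oa (chr17:34092219-34092340, plus strand): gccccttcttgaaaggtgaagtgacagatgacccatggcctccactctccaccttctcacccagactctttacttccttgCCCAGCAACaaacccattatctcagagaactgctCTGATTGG

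Class I genes were higher and class II accessory genes lower in pleural cavity eosinophils. Of 18 members on the class I side, counting heavy chains, B2m, Tap1, Tap2, Tapbp and Nlrc5, 17 were higher and H2-Q10 was lower. The 3 class II accessory members H2-DMa, H2-DMb1 and H2-Oa were all lower. Of all listed genes, 42.5% were higher and 57.5% lower. The study describes the same number of genes as differing more than 2-fold, with a larger share lower than here. Some genes that were higher here would therefore be lower by its count, and whether any member is among them was not examined. Its own fold changes were not used, and 8 members stayed within 2-fold by the scaling used here. At a 2-fold difference, 9 members were higher, beside 15.5% of all listed genes, and 5 were lower, beside 49.1% of all listed genes. Since every member had at least 100 mean reads in one tissue or both, the listed genes above that level are the closer background. Of those, 53.1% were higher and 46.9% lower, and 18.6% were more than 2-fold higher and 37.4% more than 2-fold lower. The median log2 ratio was 0.91 over the 22 members and 0.33 over the listed genes at that read level. Together the members held 3.15% of the listed reads in the pleural cavity against 1.44% in the bone marrow. In bulk libraries such as these, fewer cells of a type and less RNA per cell cannot be told apart. The 9 and 5 members rest on the scaling in part. Unscaled, 16 members were more than 2-fold higher and 3 lower, whereas scaled by the median ratio 5 were higher and 5 lower.

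**Figure D1:**
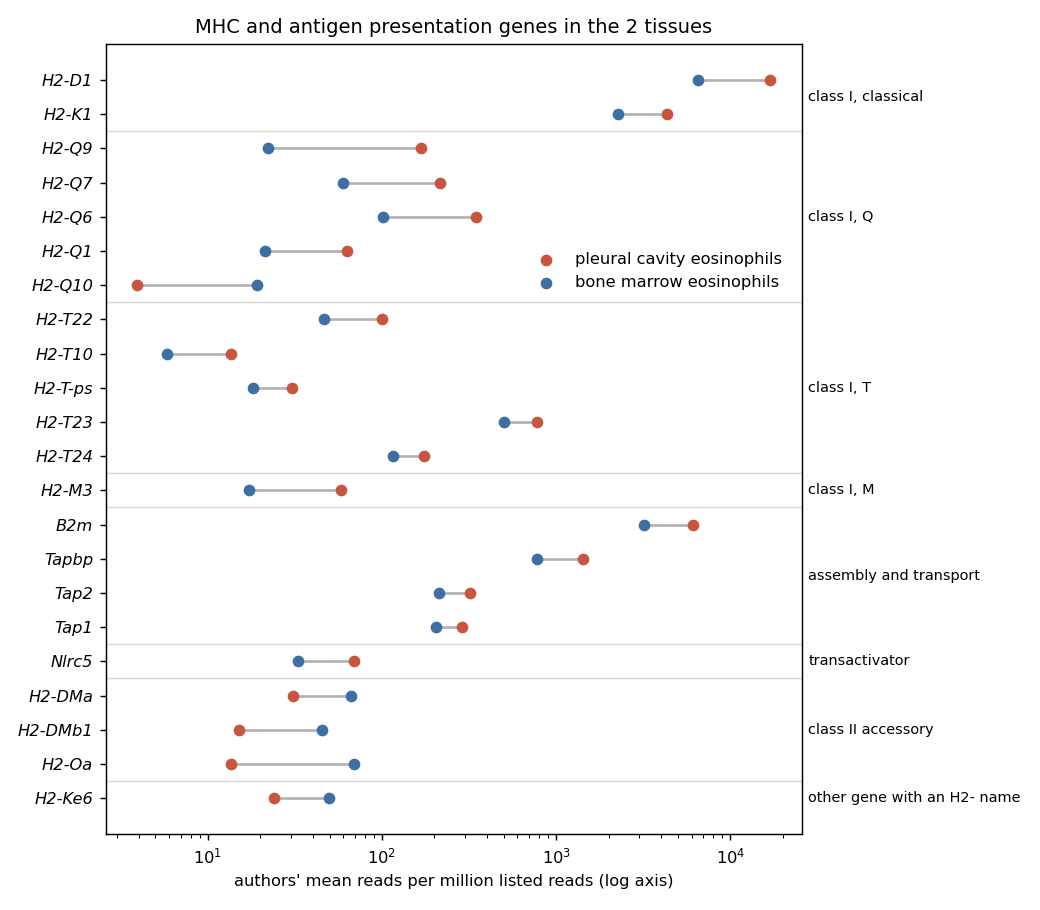
Authors' mean reads per 1000000 listed reads (log axis) for each of the 22 members, with pleural cavity eosinophils in red and bone marrow eosinophils in blue, grouped by role. H2-D1, at 16897 and 6571, is the most abundant member in both tissues, and the red point lies to the left of the blue one in H2-Q10, H2-DMa, H2-DMb1, H2-Oa and H2-Ke6.

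The classical heavy chains H2-K1 and H2-D1, which present peptides to CD8+ T cells, carried most of the reads. H2-D1 (chr17:35262730-35267499) had 269465 mean reads in the pleural cavity against 77287 in the bone marrow, and it held rank 4 by mean reads among all listed genes in the pleural cavity and rank 17 in the bone marrow. Its log2 ratio was 1.36, a 2.57-fold higher value. H2-K1 (chr17:33996017-34000347) had 69212 and 26520 mean reads, ranks 20 and 42, and a log2 ratio of 0.94. H2-D1 thus stood further apart between the tissues than H2-K1. Its reads were 3.89 times those of H2-K1 in the pleural cavity against 2.91 times in the bone marrow, a comparison within each tissue that no scaling changes. The share of H2-D1 in all heavy chain reads was 0.729 in the pleural cavity and 0.673 in the bone marrow. Both genes had fractional reads, which arise when RSEM divides reads between similar genes. A mean of whole reads over 2 libraries is a multiple of 0.5, so only means that are not such a multiple are called fractional.

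The light chain stood apart between the tissues by nearly the same ratio as H2-K1. B2m (chr2:122147686-122153083) had 97556.5 mean reads in the pleural cavity against 37592 in the bone marrow, ranks 9 and 31, with a log2 ratio of 0.94. Per kilobase of the longest transcript, B2m had 3.07 times the reads of H2-K1 in the pleural cavity and 3.09 times in the bone marrow. Summed over the 13 heavy chain members, reads were 3.79 times those of B2m in the pleural cavity against 3.05 times in the bone marrow, so heavy chain reads exceeded light chain reads by more in the pleural cavity. The heavy chain sum does not depend on how reads were divided among these 13 members, and its own log2 ratio was 1.25.

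Tapbp encodes tapasin, which holds empty class I molecules at the transporter. It had 22686 mean reads in the pleural cavity against 9087 in the bone marrow, a log2 ratio of 0.88. Tap1 and Tap2, the subunits of the peptide transporter, had the smallest differences on the class I side. Tap1 had 4570 and 2391.5 mean reads with a log2 ratio of 0.49, and Tap2 had 5110.5 and 2516.5 with 0.58. Both lay close to 0 with scaling by the median ratio, at 0.05 for Tap1 and 0.14 for Tap2. The pair kept nearly the same proportion, as Tap1 had 0.894 times the reads of Tap2 in the pleural cavity and 0.95 times in the bone marrow. Relative to B2m in the same tissue, the log2 ratio of Tap1 was -0.44, which the scaling does not affect. Tapbp shares 24.9% and Tap2 14.1% of exon bases with a gene on the opposite strand.

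Nlrc5, the transactivator of class I genes, lies outside the MHC on chromosome 8 (chr8:94434356-94527272). It had 1095 mean reads in the pleural cavity against 390 in the bone marrow, a log2 ratio of 1.03. Per kilobase it was among the lowest members, with 144 and 51.5 mean reads per kilobase. Ciita, its class II counterpart, was not among the listed genes and was not analysed here.

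**Figure D2:**
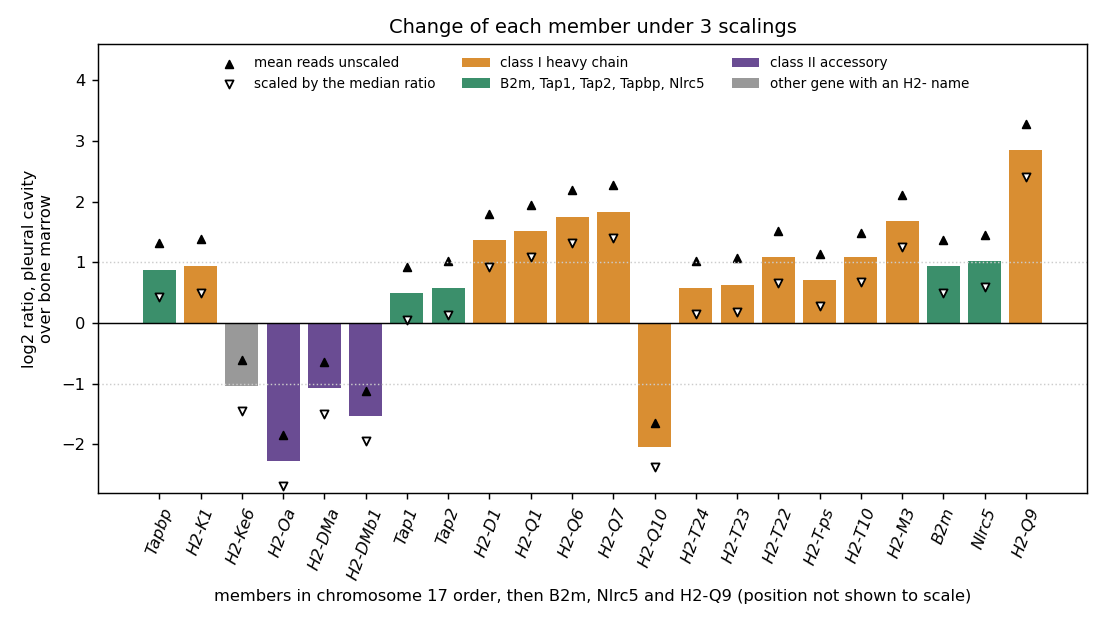
Log2 ratio of pleural cavity over bone marrow for each member (bars, scaled to the listed total), in chromosome 17 order followed by B2m, Nlrc5 and H2-Q9, with unscaled values as filled triangles and values scaled by the median ratio as open triangles. Tapbp and H2-K1 at one end and Tap1, Tap2 and H2-D1 after them are above 0, and H2-Ke6, H2-Oa, H2-DMa and H2-DMb1 between them are below 0, as is H2-Q10.

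Within the nonclassical class I genes, the Q family showed the widest range. The proteins of H2-Q6, H2-Q7 and H2-Q9 belong to the Qa-2 group, which is known to hold peptides and to be anchored to the membrane by a lipid. H2-Q9 had 2665 mean reads in the pleural cavity against 262 in the bone marrow, a 7.22-fold higher value and the highest ratio of any member, at a log2 ratio of 2.85. H2-Q7 had 3434 and 700 mean reads with a log2 ratio of 1.84, and H2-Q6 had 5519 and 1198 with 1.75. All Q members had fractional reads. Summed over these 3 genes, mean reads were 11618 and 2160, so the log2 ratio of the Qa-2 group was 1.99 whichever of the 3 received a given read. H2-Q9 was not matched to GENCODE M21, so no position or length is given for it. H2-Q1 had 1003 and 250 mean reads with a log2 ratio of 1.52.

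H2-Q10 (chr17:35470089-35474563), best known as a secreted class I molecule of the liver, was the single heavy chain member lower in pleural cavity eosinophils. It had 62.8 mean reads in the pleural cavity against 227 in the bone marrow, a 4.11-fold lower value at a log2 ratio of -2.04. The 95% counting interval of its log2 ratio, exact binomial on rounded mean reads without the added read, ran from -2.71 to -1.88. It treats each rounded mean as a count, although the mean is over 2 libraries, and it covers no spread between libraries. The reads of H2-Q10 were fractional too. Of the 100-base windows of its longest transcript, 8.80% also occur in other genes, most often in H2-Q7. Whether the letters that its promoter lacked beside H2-Q6 and H2-Q7 bear on its level was not tested.

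The T and M genes were all higher. H2-T23 encodes Qa-1, the ligand of the CD94/NKG2 receptors of natural killer cells, and had 12442 mean reads in the pleural cavity against 5940 in the bone marrow, a log2 ratio of 0.63. Of the nonclassical members with a known length it had the most reads per kilobase, with 0.128 times the level of H2-K1 in the pleural cavity and 0.159 times in the bone marrow. H2-T22, a ligand of some gamma delta T cell receptors, had 1600 and 547 mean reads with a log2 ratio of 1.09. H2-T10, which is closely related to it and annotated as a polymorphic pseudogene in GENCODE M21, had 216 and 68.6, also with 1.09. These 2 genes share 100-base windows with each other, 6.92% of those of H2-T22 and 6.05% of those of H2-T10, and each also overlaps exons of a gene on the opposite strand. H2-T24 had 2773 and 1360 mean reads with a log2 ratio of 0.58, and H2-T-ps, which GENCODE M21 annotates as a pseudogene, had 487 and 215 with 0.71. H2-M3, which presents formylated peptides of bacteria and mitochondria, had 922 and 204 mean reads, whole numbers of reads in both tissues, and a log2 ratio of 1.68. Set against B2m in the same tissue, H2-M3 was at 0.80 and the Q genes other than H2-Q10 were above 0 as well, while H2-T23 and H2-T24 were at -0.31 and -0.35 on the log2 scale.

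The class II side of the table held accessory genes alone. H2-Oa, a chain of the H2-O inhibitor, had 216 mean reads in the pleural cavity against 815.5 in the bone marrow, a 4.84-fold lower value and the lowest ratio of any member, at a log2 ratio of -2.27. By the rule above its reads were not fractional. H2-DMa and H2-DMb1 form the H2-DM peptide exchanger. H2-DMb1 had 239.6 and 534 mean reads with a log2 ratio of -1.53, and H2-DMa had 495.0 and 783 with -1.08. H2-Oa had 0.436 times the reads of H2-DMa in the pleural cavity and 1.04 times in the bone marrow, so within the lower group the inhibitor chain was also lower relative to the exchanger. Of the windows of H2-DMb1, 13.7% occur in H2-DMb2, which is not listed. H2-Oa shares 22.8% and H2-DMa 10.4% of exon bases with a gene on the opposite strand, and whether the counting used strand is not given in the sources used here. The chains that carry class II peptides, H2-Aa, H2-Ab1, H2-Eb1 and H2-Eb2, the chaperone gene Cd74 and the second H2-O chain, H2-Ob, were not among the listed genes, which gives them no direction and no level here. Of 52 genes that meet the rule in GENCODE M21, 21 were listed, and the 31 others were not analysed here. Among these are all H2-M genes but H2-M3.

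Markers of cells that are rich in class II molecules went both ways, and their part in these values was not tested. Of 18 macrophage and monocyte markers 10 were listed, 5 higher and 5 lower, and none was at 0. The higher ones were Csf1r, with 20628 mean reads in the pleural cavity against 3974 in the bone marrow, Folr2 with 877 and 12, C1qa, C1qb and Cd14. The lower ones were Ly6c2, with 608 and 22102, Lyz2 with 50393 and 87527, Mrc1, Cd163 and Apoe. The Gr1 antigen, which only the pleural gate kept low, covers Ly6C as well as Ly6G, so the gates differed in a marker related to Ly6c2. Of 12 dendritic cell markers 5 were listed. Batf3 had 2716.5 and 34.5 mean reads and Cd24a 64549.5 and 18361, Ccr7 and Bst2 were higher too, and Siglech was lower, with 0.5 and 34. Of 10 B cell markers Ms4a1 alone was listed, with 366 and 107.

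H2-Ke6 carries an H2- name for its place in the MHC and encodes a dehydrogenase of steroid and fatty acid metabolism rather than a presenting molecule. It had 381.5 mean reads in the pleural cavity against 587.5 in the bone marrow, a log2 ratio of -1.03. A gene model on the same strand, Gm20427, shares 86.4% of its exon bases, and reads from those bases could come from either. By the rule above the reads of H2-Ke6 were not fractional. Unscaled, H2-Ke6 and H2-DMa were less than 2-fold lower, at -0.61 and -0.65.

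Of the members, 19 lie on chromosome 17, between 33915899 and 37274484. The 38 other listed genes that start in that interval went both ways, with 20 higher and 18 lower and a median log2 ratio of 0.30. Psmb8, an interferon-inducible proteasome subunit that lies between Tap1 and Tap2, had 9880 mean reads in the pleural cavity against 5383.5 in the bone marrow, a log2 ratio of 0.44 that became -0.01 with scaling by the median ratio. The lower members in the stretch from H2-Ke6 to H2-DMb1 thus had higher class I pathway genes on both sides.

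**Figure D3:**
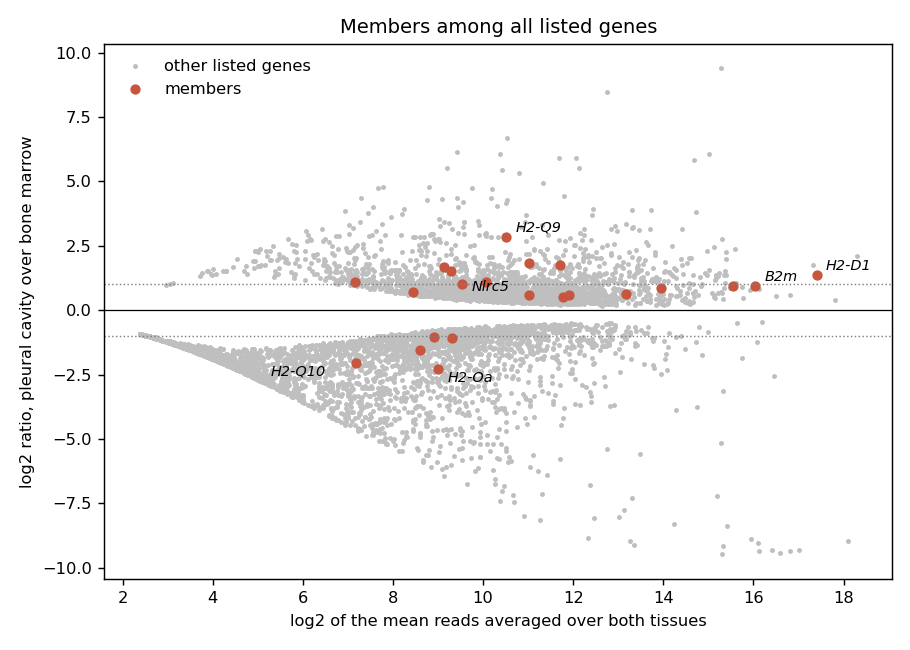
Log2 ratio against the log2 of the mean reads averaged over both tissues for the 5807 listed genes (grey) and the 22 members (red), with dotted lines at a 2-fold difference. The band around 0 is empty because the table lists only genes that differed, H2-D1 and B2m are among the most abundant listed genes, and H2-Oa and H2-Q10 lie below the lower dotted line.

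Lists of genes that act with the MHC molecules showed different patterns. Their counts, here and below, stand beside the 42.5% of all listed genes that were higher and the 57.5% that were lower. As above, listed genes with at least 100 mean reads in one tissue or both are the closer background. Of those, 53.1% were higher and 46.9% lower, and their median log2 ratio was 0.33. Of 18 genes of class I antigen processing, 10 were listed, 4 higher and 6 lower, with a median log2 ratio of -0.65. The proteasome genes Psmb8, Psmb10 and Psme2 and the tapasin relative Tapbpl were the 4 higher ones. With scaling by the median ratio, Psmb10 went from 0.92 to 0.48, and the others came to lie just below 0. The 6 lower ones were 5 chaperone genes of the endoplasmic reticulum and cytosol and Npepps, a peptidase. Hspa8, a cytosolic chaperone, had 25970 mean reads in the pleural cavity against 30304 in the bone marrow with a log2 ratio of -0.66, Hspa5 had -1.26 and Pdia3, a member of the peptide loading complex, -0.92. Calr, the calreticulin gene of the same complex, had 3442 and 13438 mean reads and the lowest value of the list, -2.40, opposite to Tapbp.

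Of 13 genes of class II processing, 7 were listed, 5 higher and 2 lower. Ctsd, a lysosomal protease, had 61896 mean reads in the pleural cavity against 22125 in the bone marrow with a log2 ratio of 1.04, and Ctsb and Lamp1 had 0.33 and 0.52. Ctsb was at -0.12 with scaling by the median ratio. Cd63, a membrane protein of granules and late endosomes, had 9024 and 24741 mean reads with a log2 ratio of -1.89. Of 21 regulators of MHC transcription, 10 were listed, 7 higher and 3 lower. Jak1 and Crebbp had log2 ratios of 0.46 and 0.32, and Crebbp was at -0.13 with scaling by the median ratio. Irf1, an interferon-inducible transcription factor that acts on class I promoters, had 3873 and 1382.5 mean reads with a log2 ratio of 1.04.

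Of 17 costimulation and checkpoint ligands, 9 were listed, 8 higher and 1 lower, with a median log2 ratio of 1.30. Vsir, an inhibitory ligand of T cells also called VISTA, had 44535 mean reads in the pleural cavity against 13317 in the bone marrow, a log2 ratio of 1.30. Cd48 had 0.89, Icam1, the adhesion ligand of T cell LFA-1, 1.95, and Cd80, which binds CD28 and CTLA-4 on T cells, 1594 and 195.5 mean reads and 2.52. The 8 higher genes of this list stayed above 0 with scaling by the median ratio. Of 12 other MHC-like genes, only Hfe and Ulbp1 were listed, both lower, at -1.39 and -1.35. Of 10 genes on a list of class I and related receptors, 5 were listed, 4 higher and 1 lower. Pirb, an inhibitory receptor for class I, had 29343 and 12791 mean reads with a log2 ratio of 0.76, and its activating relative Pira2 had 15646 and 3359 with 1.78, both with fractional reads. Cd244a, a receptor for CD48 rather than class I, and Klra2 had 1.74 and 1.52.

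**Figure D4:**
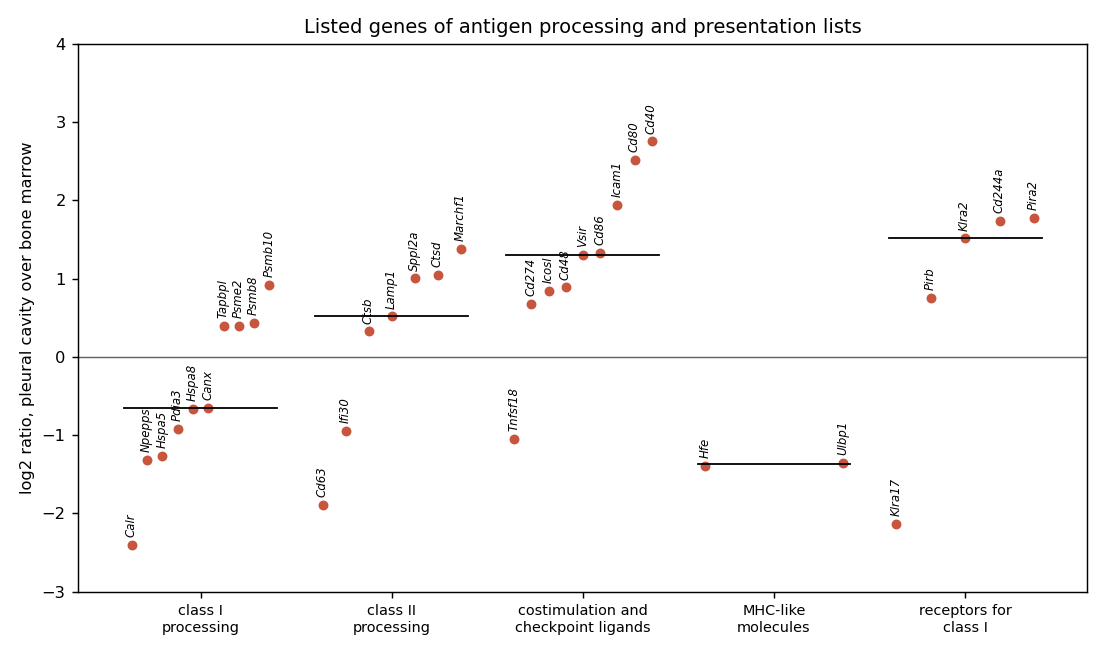
Log2 ratio of pleural cavity over bone marrow, scaled to the listed total, for every listed gene of 5 lists. The lists are class I processing, class II processing, costimulation and checkpoint ligands, other MHC-like genes, and class I and related receptors. A black line marks the median of each list. In class I processing the chaperones lie below 0 and the proteasome genes above it, and in costimulation and checkpoint ligands 8 of 9 genes lie above 0.

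Markers of granulocytes and of the remaining cell types differed between the tissues too, and their part in the values above was not tested. The study reports high purity for the sorted eosinophils and examined them by Wright-Giemsa staining. All 12 neutrophil and precursor markers were listed and lower in pleural cavity eosinophils, with 0.229% of listed reads there against 11.4% in the bone marrow. Retnlg alone had 33927 mean reads in the pleural cavity, most of the reads of this list there, against 147022 in the bone marrow. Ly6g had 5 and 1088 mean reads, but its product is part of the Gr1 antigen, which only the pleural gate kept low. All 6 basophil and mast cell markers were lower as well. Of the T and NK cell, mesothelial and tumor cell, and erythroid and megakaryocyte lists, 3 of 10, 1 of 7 and 4 of 7 markers were listed. The T and NK cell markers were all lower. Krt18, the mesothelial and tumor cell marker, was higher, with 1918 mean reads in the pleural cavity and 518 in the bone marrow. Of the erythroid and megakaryocyte markers, Pf4 was higher, with 1069.5 and 62, and 3 were lower. Of 11 eosinophil markers 9 were listed, with reads in both tissues. Ccr3 and Siglecf, the latter a gate marker, had log2 ratios of 1.54 and 1.15, whereas the granule genes Prg2 and Epx had 555404 and 139062 mean reads in bone marrow and 1482 and 341.5 in pleural cavity eosinophils. Leaving the eosinophil, neutrophil and basophil lists out of the sum used for scaling, an alternative added after the data were seen, moved the log2 ratios of all genes down by a median of 0.27, and 6 members were then more than 2-fold higher and 5 lower, with the direction of all 22 as before.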

How the data were processed

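Eosinophils from bone marrow and pleural cavity were sequenced as 2 libraries per tissue, and groups were taken from sample titles. According to the submitters' processing notes and the methods, the authors trimmed reads with SOAPnuke, aligned them to GRCm38 with HISAT2 2.1.0, mapped them to genes with Bowtie2 2.2.5 and RSEM 1.2.8, and compared tissues with DESeq2. What the authors deposited is 1 mean per tissue of RSEM's expected counts, not scaled for depth. The deposited columns with the authors' log2 fold changes, p-values and q-values were not used, beyond a check that no listed q-value exceeds 0.05. The depth of each library is unknown, so the planned tests per library were not run.

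Mean reads were scaled to the sum of the listed genes, with 1 added to each scaled value, and described at a 2-fold threshold. The ratio was tested on simulated counts in which few genes changed, as many up as down. Such counts do not test the scaling on a list whose genes all differ. Counting intervals are exact (Clopper-Pearson), treat each rounded mean as a count and cover no spread between libraries. Positions, transcript lengths and 100-base windows came from GENCODE M21, on the authors' assembly but an earlier release, which held 21 members. Protein identities were not analysed here, and shared windows took their place. Named genes were all members and, per list, up to 4 with the most reads (1 of these is not reported here), to which Psmb8, Psmb10, Psme2, Tapbpl, Npepps and the markers were added after their values were seen. Members, motifs and lists were chosen with earlier results of these data known. Calculations ran in Python 3.11.15 with scipy 1.17.1, numpy 2.4.6 and pandas 2.3.3, and plots in matplotlib 3.10.9.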

Additional observations from a re-analysis of the deposited data

How the results depend on the processing

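The counts and the median depended on the scaling, while no member changed direction in any alternative tried. The number of members more than 2-fold higher was 9, and it became 16 unscaled and 5 with the median ratio scaling. Without genes with fractional reads (means that are not multiples of 0.5), 7 members were left, of which 2 were more than 2-fold higher, and a 4-fold threshold left 1. The number more than 2-fold lower was 5, and it became 3 unscaled, 2 without genes with fractional reads and 2 at a 4-fold threshold. The median log2 ratio of 0.91 became 1.35 unscaled, 0.46 with the median ratio scaling, 0.58 without genes with fractional reads and 0.63 with the total without granulocyte markers. These moves follow from the alternatives' own construction, as a scaling shifts all genes together and a filter leaves fewer genes. Leaving out the added read, or genes under 10 or under 100 mean reads, changed neither count. No paired analysis was possible because the table holds the authors' mean per tissue and its columns carry no replicate number, and fits without 1 replicate were not run for the same reason. Depth limits H2-T10 and H2-Q10 most, which had under 100 mean reads in one tissue.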
